A study of Danio rerio with 12 samples.

Results

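The tailbud pieces of the zebrafish embryo were compared with the whole presomitic mesoderm (PSM), using 10 of the 12 arrays of a series on the paraxial mesoderm. Wild-type AB embryos raised at 23 °C to the 12-somite stage were dissected into 6 positions, from the tail end to the last formed somites, and no mutation or agent distinguishes the groups. The tailbud group comprised 4 arrays, 2 of the center of the tailbud (position 1) and 2 of its flank (position 2), where replicate 1 is the left side and replicate 2 the right. The PSM group comprised 6 arrays, 2 each of the posterior (position 3), center (position 4) and anterior (position 5) PSM. The 2 arrays of the last formed somites (position 6) entered only the estimate of the spread. Samples were chosen by their position labels alone, and all 15502 probe sets other than the array's own controls were compared. The labels name biological replicates, but the sources used here do not give the number of embryos per sample. The p-values rest on the spread between 2 samples per position, which at the flank are the left and right side. The fit also draws each probe set's spread toward a trend over all probe sets (6 residual and 16.2 prior degrees of freedom).

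The tailbud holds the progenitors that keep adding mesoderm to the trunk and tail. Cells leaving it enter the PSM, where an oscillator linked to Notch signalling works between Wnt and FGF signals from the tail end and retinoic acid from the somites, and where the next somite borders are placed. On that path cells switch off T-box and homeobox progenitor factors and switch on factors of segmentation and, later, of muscle. The comparison asks which transcripts separate the source of these cells from the tissue they pass through.

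Values are array signals scaled to a common trimmed mean of 150 per array, and array medians ran from 36.2 to 68.3 in the tailbud and from 41.9 to 67.6 in the PSM. Every difference is the mean of the position means of the tailbud minus that of the PSM, in log2(signal + 12.2), given ± its standard error, with the limma p-value adjusted by Benjamini-Hochberg over all 15502 probe sets. A probe set was called where that adjusted p was under 0.05. Differences of dim genes are understated on this scale, and signals of different genes cannot be set against each other because probes differ in brightness. Replicate arrays of a position correlated with r between 0.828, for the left and right flank, and 0.972, for the somites, over all probe sets. Calls were recomputed under 23 other settings, among them fits that left out 1 array, both flank arrays or both anterior PSM arrays, a fit of the 10 arrays as 2 plain groups without their positions, a fit whose variance did not follow the intensity, and a fit on the mean of all probe sets of a gene. Some of these settings change only the estimate of the spread, so they cannot move a difference or the median of a gene list. They are the fits without the intensity trend, with array weights, with a replicate block, without the somite arrays and as 2 plain groups. In tissue pieces, fewer cells of a type and less RNA per cell cannot be told apart.

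Of the 15502 probe sets, 547 (3.53%) were called. In the tailbud 227 (1.46%) were higher and 320 (2.06%) were lower, and 119 and 195 of these differed at least 2-fold. All 4 tailbud arrays lay above all 6 PSM arrays in 97 of the 227 and below them in 144 of the 320. Over all probe sets the same separation held for 187 (1.21%) and 250 (1.61%). With 1 probe set for each of 8793 genes, 387 genes (4.40%) were called, 150 (1.71%) higher and 237 (2.70%) lower, and groups did not overlap for 123 (1.40%) and 188 (2.14%) of all genes. Among markers of the 2 tissues, tbxta and eve1 in all 4 tailbud arrays lay above all PSM arrays, and tbx6 and mespaa lay below them. Some other markers did not separate the groups. The tailbud markers msgn1, tbx16 and tbx16l overlapped, and cdx4, noto, her1, her7 and dlc were not called. The median difference over all genes was -0.03, and 52.7% of genes lay below 0. Without the left flank array the counts fell to 135 higher and 195 lower, and without replicate 1 of the anterior PSM the lower count was 213. Without both anterior PSM arrays 79 were higher and 124 lower.

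**Figure D1:**
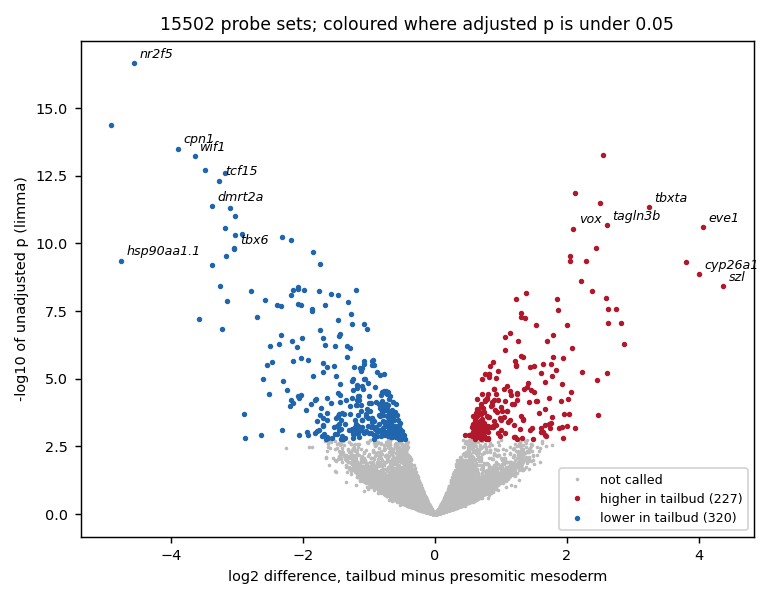
Each point is a probe set, placed by its difference between tailbud and PSM (log2, horizontal) and by -log10 of its unadjusted limma p (vertical). The 227 probe sets called higher in the tailbud are red, the 320 called lower are blue, and named genes such as szl (4.37 ± 0.47) and nr2f5 (-4.55 ± 0.19) lie at the edges.

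Called probe sets were placed by the position of their highest mean, as a description, since the same values chose them and so fix on which side of the border most of them peak. Of the 227 probe sets higher in the tailbud, 183 peaked at position 1 (by position means), 41 at position 2 and 3 at position 3. Of the 320 lower ones, 228 peaked in the anterior PSM, 66 in the center PSM, 21 in the posterior PSM and 5 in the flank of the tailbud. Over all 15502 probe sets, 16.5%, 28.0%, 16.8%, 21.2% and 17.5% peaked at positions 1 to 5. Within the tailbud, 129 probe sets (0.832%) were higher and 50 (0.323%) lower in the flank than in the center. Within the PSM, 71 (0.458%) were higher and 67 (0.432%) lower in the anterior than in the posterior PSM. At the border itself, between the flank and the posterior PSM, 2 probe sets (0.0129%) were higher in the flank and 13 (0.0839%) lower. These comparisons share arrays with the main one and are given as values along the axis.

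The largest excess in the tailbud belonged to szl, which encodes Sizzled, a secreted inhibitor of the proteases that release BMP ligands. Its signal was 1135 and 158 in the center of the tailbud and 916 and 873 in its left and right flank, against 2.0 to 64.5 over the 6 PSM arrays (median 19.9). The groups did not overlap, although replicate 2 of the center was far below the other 3 tailbud arrays. The difference was 4.37 ± 0.47, adjusted p = 1.55e-06, a fold of 20.6. It was 3.68 without replicate 1 of the center and 5.05 without replicate 2. At the border, szl was 4.78 ± 0.72, adjusted p = 0.00612, so its step fell between the flank and the posterior PSM. The homeobox gene eve1, an even-skipped relative that marks the posterior mesoderm, measured 1937 and 1322 in the center of the tailbud and 486 and 409.5 in its left and right flank. In the PSM it ranged from 2.6 to 316 (median 23.8), and its highest PSM arrays, both posterior, came close to the flank. The difference was 4.06 ± 0.33, adjusted p = 2.40e-08, and eve1 fell further within the PSM (anterior minus posterior -3.28 ± 0.52, adjusted p = 6.24e-04).

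Retinoic acid is broken down in the tailbud by the enzyme encoded by cyp26a1. That gene measured 3151 and 2866 in the center of the tailbud and 1415 and 1194 in its left and right flank. The PSM arrays held 5.2 to 370.4, all below the tailbud, and the difference was 4.00 ± 0.40, adjusted p = 5.94e-07. It was 4.61 and 3.40 without replicates 1 and 2 of the center PSM. In the opposite direction, aldh1a2, the enzyme that makes retinoic acid, gave 8.2 to 55.7 over the 4 tailbud arrays and 45.7 to 1418 over the 6 PSM arrays (median 345). Its groups overlapped only through the posterior PSM, at 76.9 and 45.7, since the anterior PSM reached 1279 and 1418 (difference -3.18 ± 0.26, adjusted p = 2.41e-08). The receptor gene rarga was higher in the tailbud (1.08 ± 0.20, adjusted p = 0.0017), with the posterior PSM at 674 and 708 inside the tailbud range of 504 to 892.

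Among all probe sets, nr2f5 had the smallest p. Its product belongs to the COUP-TF group of orphan receptors, which can antagonise retinoic acid receptors. Its signal increased along the axis, from 3.1 and 6.8 in the center of the tailbud and 93.3 and 231 in the flank to 642 and 478, 1101 and 1000.4 and 3401 and 2745 in the posterior, center and anterior PSM. The difference was -4.55 ± 0.19, adjusted p = 3.40e-13, a 23.5-fold excess in the PSM, and the steps from center to flank (3.23 ± 0.29, adjusted p = 2.85e-06) and from flank to posterior PSM (-1.82 ± 0.29, adjusted p = 0.00757) were both called. The related nr2f2 was also lower (-2.07 ± 0.22, adjusted p = 1.65e-06), with the tailbud at 20.7 to 76.6 and the PSM at 78.0 to 591, and nr2f1a likewise (-2.08 ± 0.41, adjusted p = 0.00339). The second probe set of nr2f2 differed by 0.31 and was not called (adjusted p = 0.84). Of 23 genes of retinoic acid metabolism, its receptors and COUP-TFs, 2 were higher and 4 lower in the tailbud (26.1% called, against 4.40% of all genes), with a median of 0.06. That median changed sign in 3 of the 23 other settings, without the left flank array (-0.12), without both flank arrays (-0.15) and without the anterior PSM (-0.03). The calls of nr2f1a and rarga were lost without the anterior PSM and with the arrays as 2 plain groups, that of rarga also without the intensity trend, and rarga and nr2f2 were not called on the mean of their probe sets (the other probe set of rarga gave -0.07).

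**Figure D2:**
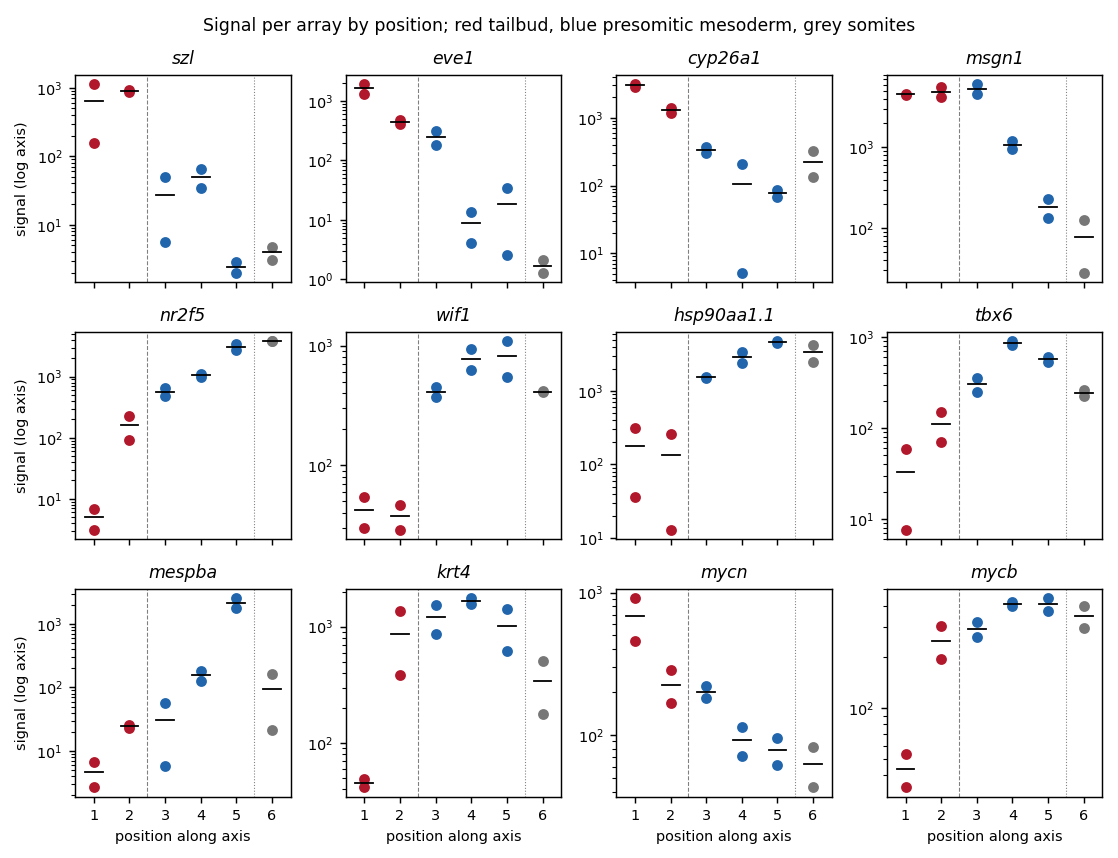
Signal of 12 genes (log axis) in each array against position along the axis, with red points for the tailbud, blue for the PSM and grey for the somites, and a bar at each position mean. Signals of wif1 step at the border between positions 2 and 3, whereas msgn1 keeps its tailbud level at position 3 and krt4 is lowest at position 1, with 1 of its flank arrays also below the PSM.

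Tailbud progenitor factors had the highest share of called genes among the 35 lists. This rank is only a description, since the lists were chosen with earlier results of these data known and this one holds known tailbud markers. Of 15 measured, 9 were higher (against 1.71% of all genes) and 0 lower, with a median of 1.66 against -0.03 for all genes. Of the 15, 4 were higher without overlap, against 1.40% of all genes. All 9 remained called when any 1 array was left out. Without the intensity trend 7 were higher, and with the arrays as 2 plain groups 6. The T-box gene tbxta, the fish Brachyury gene needed for notochord and posterior mesoderm, measured 1949.5 and 1390 in the center of the tailbud and 803 and 539.5 in its left and right flank, against 24.9 to 214 over the 6 PSM arrays (median 106). It did not overlap between the groups (3.24 ± 0.24, adjusted p = 5.78e-09). The homeobox repressors ved and vox, which act against dorsal fates, were both higher. The signal of ved was 1262 and 446 in the center of the tailbud and 698 and 718 in its left and right flank, and its PSM arrays lay between 2.2 and 208 (3.80 ± 0.36, adjusted p = 2.32e-07). For vox the tailbud held 1376 to 2138 and the posterior PSM still 887 and 796, falling to 138 and 200.2 in the anterior PSM (2.09 ± 0.17, adjusted p = 2.49e-08).

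The signals of factors that commit cells to paraxial mesoderm extended into the posterior PSM. msgn1, a bHLH factor that drives maturation of mesodermal progenitors, measured 4618 and 4532 in the center of the tailbud and 5637 and 4266 in its left and right flank, and 6143 and 4604 in the posterior PSM. Its groups overlapped, and the call (2.21 ± 0.23, adjusted p = 1.05e-06) rested on the center PSM, at 1218 and 947, and the anterior PSM, at 229 and 135. The T-box genes tbx16 (spadetail) and tbx16l, which act in the migration and differentiation of paraxial mesoderm, had the same form. For tbx16 the posterior PSM gave 1477 and 1191, within the tailbud range of 1139 to 2355 (difference 2.49 ± 0.18, adjusted p = 5.16e-09), and flank minus posterior PSM was 0.14 ± 0.29, adjusted p = 0.924. For tbx16l it gave 2662 and 2236, against 2643 to 2969 in the tailbud (2.44 ± 0.22, adjusted p = 9.84e-08). With the arrays as 2 plain groups msgn1 and tbx16l were not called, and without the anterior PSM msgn1 was not. The further called members, eve1, sp5a and sp5l, are described in other paragraphs, sp5a and sp5l with the Wnt genes. Among the members not called was the caudal-type gene cdx4 (0.48 ± 0.15, adjusted p = 0.0982), at 4668 to 5615 in the tailbud and 2810.2 to 5289.5 in the PSM. It was called under quantile normalization and when the somite arrays were left out. The notochord factor gene noto reached 1282 in replicate 2 of the tailbud center and at most 54.7 in the other tailbud arrays (1.16 ± 0.64, adjusted p = 0.442), and it was called, at 2.23, only without replicate 1 of the center.

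BMP signalling gives the tail its ventral and posterior character. Of 36 BMP genes, 7 were higher, szl, ved and vox among them, and 2 lower (25% called, against 4.40% of all genes). Their median was 0.36, and it was 0.18 without replicate 1 of the center PSM and 0.20 without replicate 1 of the posterior PSM. The decoy receptor gene bambia measured 1149.9 and 601 in the center of the tailbud and 425 and 995 in its left and right flank, above all PSM arrays at 48.9 to 219 (2.38 ± 0.26, adjusted p = 1.97e-06). The muscle-segment homeobox gene msx1b, a target of BMP, had 517 to 692 in the tailbud and 73.0 to 419 in the PSM without overlap (1.499 ± 0.29, adjusted p = 0.00253). For its relative msx3 the ranges were 266 to 593 and 47.9 to 179.9 (1.53 ± 0.31, adjusted p = 0.00463), but 2 further probe sets of msx3 differed by -0.001 and -0.14. The ligand gene bmp2a was called (2.47 ± 0.56, adjusted p = 0.0113) although the right flank gave 11.6, inside the PSM range of 3.7 to 44.7. Lower in the tailbud were the receptor gene bmpr1ba (-1.82 ± 0.37, adjusted p = 0.00443) and the follistatin-like gene fstl1b (-0.997 ± 0.20, adjusted p = 0.00329). Leaving out 1 array gave 5 to 8 higher and 2 to 3 lower BMP genes, and 4 were higher without the intensity trend, where msx1b, msx3, bmp2a and fstl1b were not called. The calls of bmp2a, bmpr1ba and fstl1b were lost without the anterior PSM and with the arrays as 2 plain groups. The call of msx3 was lost without replicate 1 of the tailbud center (adjusted p = 0.0599), and that of bmp2a in 3 of the 10 fits that left out 1 array, those without replicate 1 of the center, the left flank or replicate 2 of the posterior PSM (adjusted p up to 0.132). Its difference was 1.71 without the left flank and 3.22 without the right.

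Of 30 Wnt genes, which include ligands, receptors and targets, 7 were higher and 1 lower in the tailbud, with a median of 0.28. The share called was 26.7%, against 4.40% of all genes. The list does not hold wif1, which encodes a secreted protein that binds Wnt ligands and blocks them. The signal of wif1 was 53.7 and 30 in the center of the tailbud and 28.7 and 46.2 in its left and right flank. All 6 PSM arrays held 370.4 to 1088, so the groups were far apart (-3.64 ± 0.22, adjusted p = 1.86e-10), and flank and posterior PSM differed by -3.10 ± 0.34, adjusted p = 9.82e-05. The feedback inhibitor gene axin2, a direct target of Wnt, measured 398 and 1436 in the center of the tailbud and 153 and 172 in its left and right flank, against 41.9 to 175 over the 6 PSM arrays (median 82.0). The flank lay within the PSM range, and the excess lay in the center (tailbud minus PSM 1.94 ± 0.30, adjusted p = 2.52e-04, flank minus center -2.14 ± 0.47, adjusted p = 0.0226). The receptor gene fzd10 had 1363 to 2026 in the tailbud and 1780.5 and 1585 in the posterior PSM (1.38 ± 0.15, adjusted p = 2.18e-06), and wls, whose product carries Wnt ligands to the cell surface, had 1394 to 2162 and 845 to 1264 without overlap (0.76 ± 0.13, adjusted p = 7.09e-04). Another probe set of wls was called too (0.57, adjusted p = 0.0254), and the third was not (-0.55). The receptor gene fzd7a went the other way, with 258 and 756 in the center of the tailbud and 529 and 629 in its left and right flank, below all PSM arrays at 1454 to 2072 (-1.76 ± 0.19, adjusted p = 1.92e-06). The Wnt-dependent factors sp5a (1.66 ± 0.30, adjusted p = 0.0013) and sp5l (1.14 ± 0.16, adjusted p = 3.96e-05) were higher, and sp5l returned to 1089 and 1144 in the anterior PSM from 233 and 248 in the center PSM. Without the intensity trend, and likewise with the arrays as 2 plain groups, 3 genes of the list were higher. Then wls and sp5a (no trend), fzd10 (2 groups) and sp5l (both) were not called, and the second probe set of fzd10 gave 0.52. The calls of the effector lef1 (1.32 ± 0.37, adjusted p = 0.0445) and the ligand wnt5b (1.204 ± 0.33, adjusted p = 0.0423) were fragile. That of lef1 was lost in 9 of the 10 fits without 1 array, all but the fit without replicate 1 of the center PSM, and that of wnt5b in 8, all but that fit and the fit without the right flank (adjusted p up to 0.258).

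Of 25 FGF genes, 4 were higher, 2 lower and 19 not called (24% called, against 4.40% of all genes). Their median of 0.07 changed sign in 9 of the 23 other settings, to -0.02 under quantile normalization and as low as -0.09 without replicate 2 of the posterior PSM. It was 0.22 without replicate 1 of the anterior PSM. The ligand gene fgf10a measured 359 and 385 in the center of the tailbud and 331 and 211 in its left and right flank, above all PSM arrays at 5.8 to 145 (2.62 ± 0.34, adjusted p = 1.87e-05). The feedback antagonist spry4 (1.41 ± 0.26, adjusted p = 0.0014), the ERK phosphatase dusp6 (0.83 ± 0.14, adjusted p = 4.13e-04) and the ETS factor etv5a (0.79 ± 0.16, adjusted p = 0.00405) are targets of FGF signalling. Each of these overlapped between the groups, dusp6 for example with 1275 to 1997 in the tailbud and 1612 and 1193 in the posterior PSM, and each lost its call without the anterior PSM, without the intensity trend and with the arrays as 2 plain groups. The receptor gene fgfr4 had 36.1 and 6.4 in the center of the tailbud and 9.5 and 294 in its left and right flank, where the right flank alone lay inside the PSM range of 64.9 to 587 (-2.60 ± 0.46, adjusted p = 0.001). The difference was -1.65 without the left flank and -3.56 without the right. It was not called without the anterior PSM or without the intensity trend. The gene fgfrl1a, whose product binds FGF without a kinase domain, had 2.7 to 97.1 in the tailbud and 153 to 472 in the PSM (-3.03 ± 0.26, adjusted p = 3.79e-08). The ligand fgf8a, which patterns the tailbud, gave 489 and 587 in the center but 114 and 12.1 in the flank, and the PSM gave 11.4 to 283 (0.66 ± 0.36, adjusted p = 0.431). It was called when the right flank array was left out (1.26) or both flank arrays (2.32), and without both flank arrays 7 genes of the list were higher. In the fit of all arrays flank and center differed by -3.31 ± 0.56, adjusted p = 0.00201.

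Of 37 genes of the anterior PSM and somite borders, 12 were lower, 3 higher and 22 not called in the tailbud (40.5% called, against 4.40% of all genes). Their median was -0.44, and it was -0.22 without replicate 1 of the posterior PSM. The gene tbx6, a T-box factor that positions somite borders, measured 7.6 and 58.7 in the center of the tailbud and 152 and 70.7 in its left and right flank. The PSM held 251 to 902 without overlap and peaked in its center, at 821 and 902 (-3.03 ± 0.27, adjusted p = 1.02e-07). The bHLH gene tcf15 (paraxis), which acts in making somites epithelial, stood at 10.5 and 10.8 in the center, 132 and 64.2 in the flank and 169.9 to 1120.5 in the PSM (-3.26 ± 0.22, adjusted p = 9.31e-10). dmrt2a (terra), a factor of symmetric somite formation, was at 6.9 to 13.6 in the 4 tailbud arrays and at 69.2 to 518 in the PSM (-3.37 ± 0.25, adjusted p = 5.78e-09), and its flank and posterior PSM already differed (-2.19 ± 0.39, adjusted p = 0.018).

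Genes of the forming border differed in where they departed from the tailbud level. The bHLH gene mespba, which sets the polarity of the forming somite, read 5.7 and 56.2 in the posterior PSM and 2505 and 1768 in the anterior PSM, against 2.7 to 25.9 in the tailbud (-3.22 ± 0.43, adjusted p = 2.90e-05). Its relative mespaa did not overlap between the groups, but the left flank, at 207, was close to the lowest PSM array at 221 (-2.49 ± 0.36, adjusted p = 9.51e-05, or -3.14 and -1.84 without the left and right flank). The protocadherin gene pcdh10b (-2.03 ± 0.24, adjusted p = 5.03e-06) and the early muscle factor myf5 (-1.29 ± 0.19, adjusted p = 1.08e-04) were lower as well, with overlap through the left flank at 255 and 371. The related repressors of the Snail family moved in opposite directions. snai1a, which drives cells out of epithelia, measured 1171 and 846 in the center of the tailbud and 978 and 588 in its left and right flank, above all PSM arrays at 252 to 571 (1.26 ± 0.18, adjusted p = 6.66e-05). snai2 was at 75.4 and 9.6 in the center of the tailbud, whereas the flank, at 233 and 225, lay within the PSM range of 167 to 459.8 (-1.70 ± 0.27, adjusted p = 3.37e-04). The other probe sets of snai2 differed by 0.14 and -0.06 and were not called. Neither mespba nor snai2 was called with the arrays as 2 plain groups, mespba was lost without the anterior PSM, and snai2 was lost without the intensity trend and on the mean of its probe sets. Lower genes of this list numbered 8 to 14 with 1 array left out, 7 without the anterior PSM or the intensity trend and 6 with the arrays as 2 plain groups. The other calls were pcdh8, foxc1a, foxc1b and six4a (lower) and fn1a and cxcl12b (higher). Of the 15 called genes, 10 kept their call in all 10 fits without 1 array, and the exceptions were pcdh8, fn1a, foxc1a, foxc1b and six4a, each lost in 6 to 9 fits.

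Of the genes of the segmentation clock and Notch pathway, 13.8% were called, against 4.40% of all genes. Of 29, 1 was higher and 3 were lower, with a median of 0.14 that changed sign in 3 of the 23 other settings, without replicate 2 of the tailbud center (-0.10) or replicate 1 of the posterior (-0.04) or anterior PSM (-0.01), and that was 0.02 without the right flank and 0.00 without replicate 1 of the center PSM. The repressor hes6, a partner of the oscillating Her proteins, was higher (1.22 ± 0.19, adjusted p = 3.03e-04), with 2088 to 3543 in the tailbud and 2810 and 2349.5 in the posterior PSM. hey1, a target of Notch, was lower (-2.15 ± 0.23, adjusted p = 1.91e-06), at 42.7 to 136 against 1221 and 1255 in the anterior PSM. The receptor gene notch2 was lower without overlap (-1.43 ± 0.20, adjusted p = 4.28e-05), at 80.3 to 206 and 212 to 492. Of its other 2 probe sets, 1 was lower too (-1.81) and 1 was not called (0.40), and the mean over its probe sets was not called. The call of hes6 was lost without the anterior PSM, without the intensity trend and with the arrays as 2 plain groups. The oscillating genes her1 (-0.41 ± 0.27, adjusted p = 0.549) and her7 (0.73 ± 0.29, adjusted p = 0.233) and the ligand gene dlc (-0.59 ± 0.24, adjusted p = 0.233) were not called, and their replicates differed, her7 reading 572 and 215 in the center of the tailbud. dlc was called, at -0.95, only without replicate 1 of the tailbud center. The fourth call of the list, her6 (-1.198 ± 0.31, adjusted p = 0.0265), was lost in 8 of the 10 fits without 1 array (adjusted p up to 0.237), all but the fits without the right flank or replicate 1 of the center PSM.

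**Figure D3:**
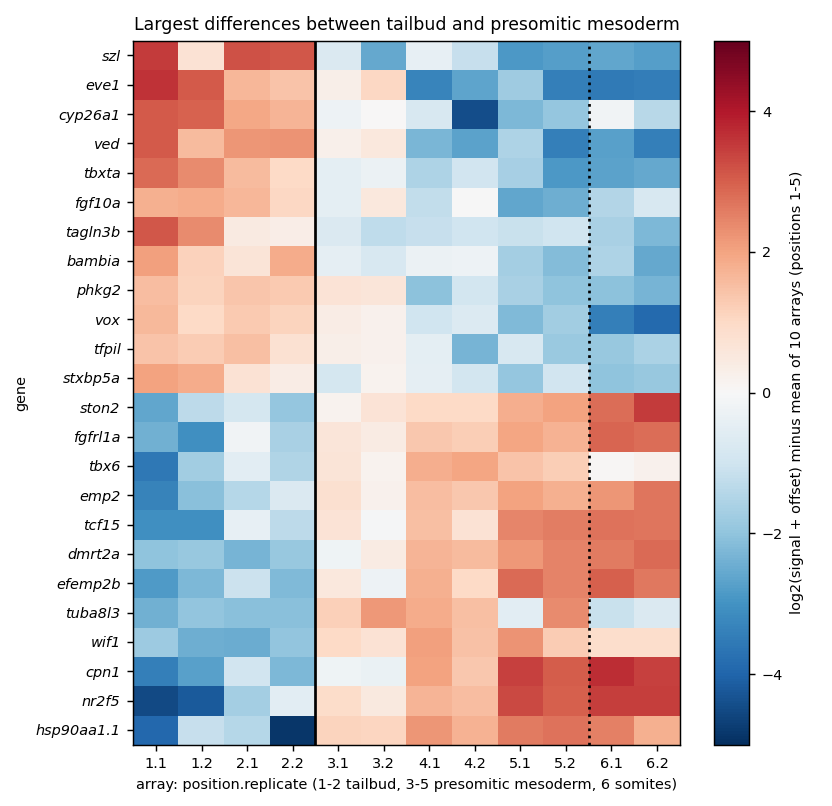
Heat map of the 12 genes with the largest difference in each direction among those named by rule. Colour is log2(signal + 12.2) minus the gene's mean over the 10 arrays of positions 1 to 5, columns are arrays by position and replicate, the solid line marks the border between tailbud and PSM and the dotted line that to the somites. Columns left of the solid line are red in the upper 12 genes and blue in the lower 12, apart from pale cells such as szl in replicate 2 of position 1.

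The largest deficit among probe sets with a gene symbol was that of hsp90aa1.1, a chaperone of myosin folding in muscle, and 1 probe set without a symbol had a larger one. It measured 36.2 and 315 in the center of the tailbud and 258 and 12.9 in its left and right flank, and 1518 to 4747 in the PSM. Although the tailbud arrays scattered widely, all were below the lowest PSM array, and the difference was -4.75 ± 0.45, adjusted p = 2.18e-07, 26.9-fold. The difference was -4.06 and -5.44 without replicates 1 and 2 of the center, -5.61 without the left flank and -3.89 without the right. Flank and posterior PSM differed by -4.24 ± 0.70, adjusted p = 0.00757. Its partner unc45b, another chaperone of myosin, had 143 to 307 in the tailbud and 565 to 1456 in the PSM (-1.85 ± 0.17, adjusted p = 1.27e-07). Of 44 sarcomere genes, this pair included, 4 were lower and 0 higher (9.09% called, against 4.40% of all genes). Of these 4 calls, only actc1a and ttn.2 lay outside the pair, which is also counted among the chaperones. The share therefore does not stand for the sarcomere genes outside the pair. The list's median was -0.18. That median was -0.08 and -0.29 without replicates 1 and 2 of the tailbud center, -0.32 without the left flank, and -0.27 without replicate 1 of either the posterior or the anterior PSM. The other calls were the actin gene actc1a (-2.54 ± 0.41, adjusted p = 3.95e-04) and the titin gene ttn.2 (-1.26 ± 0.32, adjusted p = 0.0264), and ttn.2 was lost in 7 of the 10 fits without 1 array (those without either center tailbud array, the left flank, replicate 1 of the posterior or center PSM, or either anterior PSM array) while its 3 other probe sets were not called. The call of actc1a was lost without the intensity trend, and its difference was -1.59 and -3.49 without replicates 1 and 2 of the tailbud center. Of 11 myogenic factors only myf5 was called (9.09%), and myod1 gave 4.6 to 145 in the tailbud and 14.7 to 209.7 in the PSM (-0.56 ± 0.50, adjusted p = 0.684).

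Several further transcripts with large differences belong to no signalling list. In the tailbud tagln3b, an actin-binding protein of the transgelin family, measured 2357 and 1418 in the center of the tailbud and 363 and 340.2 in its left and right flank, against a narrow 103 to 156 in the PSM (2.61 ± 0.21, adjusted p = 2.20e-08). It was already lower in the flank than in the center (-2.34 ± 0.33, adjusted p = 4.42e-04). phkg2, the catalytic subunit of phosphorylase kinase, held 181 to 246 in the tailbud and 8.9 to 129 in the PSM (2.23 ± 0.38, adjusted p = 6.47e-04). tfpil (2.08 ± 0.30, adjusted p = 1.09e-04) and stxbp5a, a syntaxin-binding protein of vesicle release (2.07 ± 0.40, adjusted p = 0.00253), were also higher without overlap. prkcbb, a protein kinase C gene, was higher (1.22 ± 0.20, adjusted p = 4.17e-04), at 374 to 465 against 82.6 to 258. Among the lower genes, cpn1, a subunit of carboxypeptidase N, ran from 7.3 and 20 in the center of the tailbud to 2247 and 1710.4 in the anterior PSM (-3.89 ± 0.23, adjusted p = 1.65e-10). The fibulin gene efemp2b, of elastic matrix, had 28.4 to 123.1 and 226 to 2011 (-3.48 ± 0.22, adjusted p = 5.07e-10), and the tubulin gene tuba8l3 had 4.2 to 9.6 and 47.0 to 434 (-3.57 ± 0.45, adjusted p = 1.35e-05). Both were also lower in the flank than in the posterior PSM (-1.76 ± 0.35, adjusted p = 0.0429 and -3.77 ± 0.70, adjusted p = 0.0238).

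Membrane and signalling proteins were among the lower genes. The tetraspan gene emp2 (-3.18 ± 0.21, adjusted p = 5.74e-10) rose from 36.3 and 103 in the center and 170.3 and 290.4 in the flank to 557 to 1964 in the PSM, and its second probe set gave -2.91. The endocytic adaptor ston2 (-2.79 ± 0.31, adjusted p = 1.92e-06), the tripartite-motif gene trim109 (-2.69 ± 0.34, adjusted p = 1.17e-05) and pik3r3b, a regulatory subunit of PI3-kinase (-1.74 ± 0.17, adjusted p = 2.64e-07), had all 4 tailbud arrays below all 6 PSM arrays. For pik3r3b the ranges were 92.3 to 315 and 467 to 827, and its second probe set was not called (-0.52).

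A group of dimmer genes was called less firmly. The transcription factor gene sox9b had 2.3 to 43.7 and 47.7 to 448 (-2.51 ± 0.49, adjusted p = 0.00295), and its other probe set differed by -0.14. It was not called without the intensity trend or on the mean of its probe sets. The neuronal RNA-binding gene elavl3 had 8.4 to 29.7 and 88.0 to 187 (-2.03 ± 0.40, adjusted p = 0.00305), but its 3 other probe sets gave -0.17, 0.40 and -0.33, and their mean was not called. The distal-less gene dlx5a was higher (1.88 ± 0.48, adjusted p = 0.0256), at 65.6 to 261 against 7.8 to 54.5, and so was the desmosomal cadherin dsc2l (1.95 ± 0.44, adjusted p = 0.0104), whose other probe set gave 0.05. The kinase gene stk17al (1.67 ± 0.45, adjusted p = 0.0375) was called from 1 of 4 probe sets, the others giving -0.07, -0.33 and -0.28. The stathmin gene stmn2a (-1.79 ± 0.46, adjusted p = 0.0294), the complement gene c6.2 (-1.63 ± 0.45, adjusted p = 0.0434) and the elongase gene elovl7a (-1.75 ± 0.45, adjusted p = 0.0284) were lower at signals under 100 in nearly every array. Over the 10 fits that left out 1 array, calls were lost in 6 fits for dlx5a, 2 for dsc2l (without replicate 1 of the tailbud center or the left flank), 8 for stk17al, 7 for stmn2a, 9 for c6.2 and 6 for elovl7a, with adjusted p of at most 0.199 among c6.2, stmn2a and elovl7a.

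Genes of ribosome production, the largest of the 35 lists, gave more lower calls than any other list. The share called was 32.1%, against 4.40% of all genes and 40.5% of the genes of the anterior PSM and somite borders. Of 112 genes, 35 were lower and 1 higher, with a median of -0.45, and without the 4 myc genes of that list 32 of 108 were lower and 0 higher. The differences of those 32 ran from -0.45 to -1.04. Of the 108, 104 lay below 0, against 52.7% of all genes. Among all 112 genes, called or not, 31 were lower without overlap, against 2.14% of all genes. Of the 32 called, 21 did not overlap between the groups. The DEAD-box helicase gene ddx21, which acts in ribosomal RNA processing, measured 1926 and 1747 in the center of the tailbud and 1086 and 2402 in its left and right flank, below all PSM arrays at 2577 to 4055 (-0.91 ± 0.17, adjusted p = 0.00183). ddx31 followed, at 135 to 288 against 294 to 623 (-1.01 ± 0.18, adjusted p = 0.00134), and wdr46, a nucleolar scaffold protein, at 299.5 to 537 against 615 to 987 (-0.82 ± 0.16, adjusted p = 0.00306). The RNA polymerase I subunit polr1e had 179 to 296 and 356 to 544 (-0.81 ± 0.18, adjusted p = 0.0112), and rpf2, an assembly factor of the large subunit, 162 to 844 and 867 to 1256 (-1.04 ± 0.24, adjusted p = 0.0115). For rpf2 replicate 2 of the tailbud center, at 162, was far below the other 3 tailbud arrays. Centred on each gene, the list's median was -0.39 to -0.19 in the tailbud arrays and 0.03 to 0.45 in the PSM arrays, and it was highest in the anterior PSM. The number called depended on the setting: 14 were lower without the left flank, 18 without replicate 1 of the posterior PSM, 20 without replicate 1 of the center PSM, 19 and 23 without replicates 1 and 2 of the anterior PSM, 20 with array weights, 22 without both flank arrays, 19 with the arrays as 2 plain groups, 3 without the anterior PSM, 2 under median centring and 1 without the intensity trend. For rpf2 and polr1e the call was lost in 5 and 3 of the 10 fits without 1 array, and all 5 genes named here lost it without the intensity trend. The list's median stayed between -0.51 and -0.37 in the 23 other settings, some of which change only the spread and cannot move it.

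The myc genes, growth regulators that drive ribosome production, divided among themselves. mycn measured 455 and 909 in the center of the tailbud and 285 and 167 in its left and right flank, against 61.5 to 221 over the 6 PSM arrays (median 104). It was higher in the tailbud (1.64 ± 0.26, adjusted p = 3.63e-04), with only the right flank inside the PSM range. mycb measured 34.1 and 53.5 in the center of the tailbud and 303 and 195 in its left and right flank, with the center far below the PSM range of 262 to 442 and the flank near or inside it (-1.67 ± 0.20, adjusted p = 4.88e-06). mych was lower as well (-0.96 ± 0.20, adjusted p = 0.00497), and myca, also called (-1.43 ± 0.40, adjusted p = 0.0484), lost its call in 8 of the 10 fits without 1 array. A second probe set of mycn differed by 0.62 and was not called, nor was the mean of both, and mych was lost without the anterior PSM, without the intensity trend, under median centring and with the arrays as 2 plain groups. Of 71 ribosomal protein genes 0 were called by limma (4 at an unadjusted p under 0.05), 64 lay below 0, and the list's median was -0.14, which was -0.08 without the left flank, -0.07 under median centring and -0.04 under quantile normalization. Their centred medians of -0.23 to 0.08 in the tailbud overlapped those of -0.06 to 0.18 in the PSM.

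**Figure D4:**
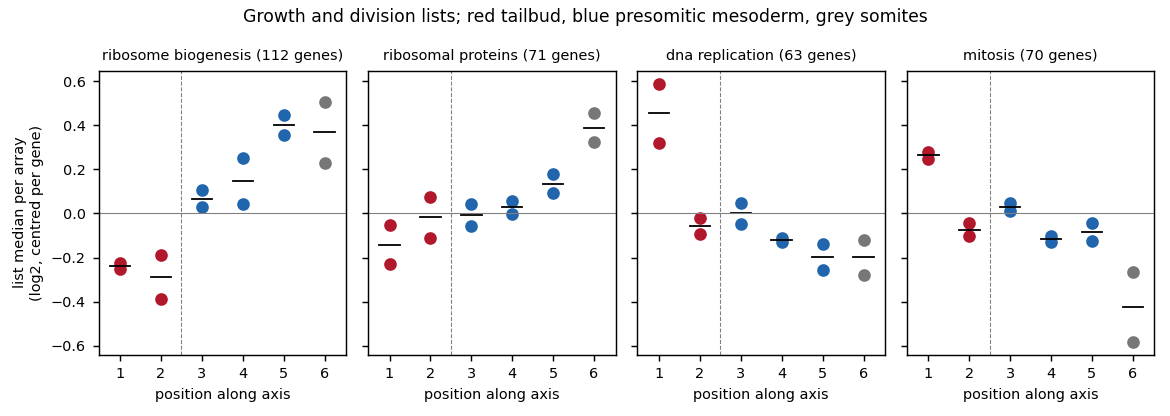
Median of 4 gene lists in each array, with every gene centred on its mean (log2, vertical), against position along the axis, in red for the tailbud, blue for the PSM and grey for the somites, with a bar at each position mean. For ribosome biogenesis the tailbud arrays (-0.39 to -0.19) lie below the PSM arrays (0.03 to 0.45), and for DNA replication the center of the tailbud (0.59 and 0.32) lies above the flank and the PSM.

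Replication genes had their highest level in the center of the tailbud. Of 63, 7 were higher and 0 lower (11.1% called, against 4.40% of all genes), with a median of 0.34. Centred per gene, the list's median was 0.59 and 0.32 in the 2 center arrays, -0.09 and -0.02 in the flank and -0.26 to 0.05 in the PSM, so the flank lay within the PSM range. rrm1, the large subunit of ribonucleotide reductase, measured 2164 and 1345 in the center of the tailbud and 1010 and 1055 in its left and right flank, above all PSM arrays at 574 to 918 (0.79 ± 0.16, adjusted p = 0.00384). dnmt1, the methyltransferase that copies DNA methylation, had 1321 and 1320.3 in the center but 551 and 539.6 in the flank, within 425 to 818 of the PSM (0.59 ± 0.15, adjusted p = 0.032, flank minus center -1.26 ± 0.24, adjusted p = 0.00602). The clamp loader rfc4 (0.74 ± 0.16, adjusted p = 0.00904) and the helicase subunit mcm4 (0.57 ± 0.15, adjusted p = 0.0323) were above all PSM arrays. A second probe set of rfc4 was not called (-0.19). Only rrm1 kept its call in all 10 fits without 1 array. The list's count was 1 without replicate 1 of the tailbud center, 3 without replicate 1 of the posterior or replicate 2 of the anterior PSM, 4 without the left flank or replicate 2 of the posterior or center PSM, 3 with array weights, 2 under median centring or with the arrays as 2 plain groups and 0 without the anterior PSM or the intensity trend, while without both flank arrays it was 17. Of 70 mitosis genes 1 (1.43%) was called, the kinesin gene kifc1 (0.61 ± 0.15, adjusted p = 0.0194), which was lost in 5 of the 10 fits, and the median was 0.12.

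Of 56 epidermal genes 4 were lower and 1 higher in the tailbud (8.93% called, against 4.40% of all genes), with a median of -0.31. Without both flank arrays 11 were lower and 0 higher, with a median of -0.96. Their summed signal was 3972 to 18710 over the tailbud arrays and 8232 to 16770 over the PSM arrays. The keratin gene krt4 measured 41.9 and 49.5 in the center of the tailbud and 384 and 1350.5 in the left and right flank, against 621 to 1746 in the PSM (-2.57 ± 0.30, adjusted p = 3.63e-06). The right flank lay inside the PSM range and the center far below it (flank minus center 3.67 ± 0.46, adjusted p = 1.70e-04). krt8 (-1.51 ± 0.22, adjusted p = 9.69e-05), the tight-junction gene cldni (-0.97 ± 0.24, adjusted p = 0.0242) and tfap2a, a factor of epidermis and neural crest (-1.63 ± 0.27, adjusted p = 4.41e-04), had the same form, with flank minus center at 2.17 ± 0.34, adjusted p = 0.00105, 2.64 ± 0.38, adjusted p = 4.42e-04 and 2.79 ± 0.41, adjusted p = 6.28e-04. Of 36 genes of blood, endothelium and intermediate mesoderm 5 were lower and 0 higher (13.9% called), with a median of -0.44 (-0.70 without the right flank and -0.86 without both flank arrays) and summed signals of 980 to 5334 and 1999 to 9378. The globin gene hbae3 ranged from 3.7 to 677 in the tailbud and from 45.6 to 2847 in the PSM (-2.90 ± 0.65, adjusted p = 0.0104), and fli1, an endothelial factor, read 2.6 and 3.3 in the center and 95.8 and 274 in the flank (-1.49 ± 0.35, adjusted p = 0.0131). None of these 5 calls (hbae3, hbbe3, fli1, fli1rs and drl) held in all 10 fits without 1 array. Their count was 0 without the left flank or replicate 1 of the anterior PSM, 1 without replicate 2 of the posterior or center PSM, 3 without replicate 1 of the tailbud center, posterior or center PSM, and 9 without the right flank. Epidermal genes lower in the tailbud numbered 3 to 8, the most without the right flank, and the call of cldni was lost in 7 of the 10 fits. Without the intensity trend, and with the arrays as 2 plain groups, krt8, tfap2a and all 5 blood and vessel genes were not called. The difference of hbae3 was -1.76 without the left flank and -4.03 without the right. The second probe sets of hbae3 (-1.05) and fli1 (-0.22) were not called. The part of these cell types in the other differences was not tested.

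Shares called among markers of other neighbours differed, against 4.40% of all genes. They were 21.4% for neural crest, 7.5% for neural tube, 5% for germ cells and for endoderm and yolk, and 3.85% for notochord. Of 26 notochord genes 1 was called, cav1, a caveolar coat gene (2.82 ± 0.36, adjusted p = 1.81e-05), at 697 and 787 in the center of the tailbud and 311 and 76.2 in its left and right flank against 13.9 to 115 in the PSM, with the right flank inside the PSM range, and shha, the signal of the notochord and floor plate, had 4.6 to 209.9 and 4.1 to 119 (0.36 ± 0.60, adjusted p = 0.856). Of 40 neural tube genes 1 was higher and 2 lower, with a median of -0.22. Without replicate 1 of the tailbud center that median was -0.04, without the right flank -0.11, without replicate 2 of the center PSM -0.34, and without replicate 2 of the tailbud center -0.41, with 6 lower. Of the further probe sets of cav1, 1 was higher too (2.61) and the others were not called (1.18 and 0.68). The higher neural gene was tubb5 (0.96 ± 0.25, adjusted p = 0.0328), lost in 9 of the 10 fits without 1 array, and the lower ones were elavl3 and zic2b. The gene zic2b, a zinc-finger factor of dorsal neural tube and somites, was lower (-1.85 ± 0.32, adjusted p = 8.06e-04) with replicate 2 of the tailbud center at 758 and the other 3 tailbud arrays at 90.2 to 108. sox2, a factor of neural and neuromesodermal progenitors, had 32.2 to 371 in the tailbud and 6.8 to 320.2 in the PSM and was not called (1.33 ± 0.42, adjusted p = 0.0979), except without the right flank (1.78) or both flank arrays (2.40). The further probe sets of sox2 differed by -0.66 and 0.79 and were not called, nor was the second probe set of zic2b (-0.84). The difference of zic2b was -1.18 and -2.52 without replicates 1 and 2 of the center, and its call was lost without the intensity trend, without both flank arrays and without the anterior PSM. Of 14 neural crest genes 0 were higher and 3 lower, namely sox9b, tfap2a and snai2, of 40 genes of endoderm and yolk 2 were lower (apoc1 at -0.53 ± 0.13, adjusted p = 0.0181 and ctsba at -0.64 ± 0.14, adjusted p = 0.00912), and of 20 germ cell genes 1 was lower, nanos3, which read 1317 and 304 in the center PSM and at most 70.9 in any other array of the 10 (-1.93 ± 0.51, adjusted p = 0.0324, lost in 6 of the 10 fits without 1 array). Of 30 genes of Kupffer's vesicle and cilia and of 3 hatching gland genes, 0 were called by limma (0 at an unadjusted p under 0.05), and the medians of both lists, -0.02 each, changed sign in 8 and 7 of the 23 other settings. The vesicle and cilia list ran from -0.10 without the anterior PSM to 0.16 without both flank arrays, and the hatching gland list from -0.35 without both flank arrays to 0.28 without the left flank. Calls of the 3 neural crest genes were lost without the intensity trend. Neither endoderm call held in all 10 fits without 1 array, and their count there ran from 0 to 2.

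The Hox genes called belong to the posterior groups, which pattern the tail. Of 17 genes of groups 9 to 13, 2 (11.8%) were higher in the tailbud, against 1.71% of all genes, and 15 had a difference above 0, with a median of 0.47. hoxc11a had 656 to 861 in the tailbud and 824 and 544, 258 and 166 and 45 and 36.4 in the posterior, center and anterior PSM (1.86 ± 0.22, adjusted p = 6.66e-06), and hoxd11a 619.5 to 840.3 against 193 to 870.4 (0.96 ± 0.19, adjusted p = 0.00438). Both overlapped through the posterior PSM, and both lost the call without the anterior PSM and with the arrays as 2 plain groups, and the further probe sets of hoxc11a (-0.19 and 1.13) were not called. Of 25 genes of groups 1 to 8, 0 were called by limma (2 at an unadjusted p under 0.05), with a median of 0.01 that changed sign in 7 of the 23 other settings, and ran from -0.14 without replicate 2 of the tailbud center to 0.25 without replicate 1.

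Matrix and adhesion genes went both ways. Of 48 matrix genes 2 were higher (col11a1a and fn1a) and 6 lower (16.7% called, against 4.40% of all genes), with a median of -0.06. That median was 0.00 under median centring, -0.45 without both flank arrays, -0.21 without replicate 2 of the tailbud center, -0.19 without the left flank, -0.13 and -0.12 without replicate 1 of the posterior and center PSM, -0.10 without replicate 1 of the anterior PSM and -0.04 without replicate 2 of the posterior PSM. The lower count was 3 under median centring, without the intensity trend or without the anterior PSM and 2 with the arrays as 2 plain groups. The collagen gene col11a1a was higher without overlap, at 474 to 639 against 92.4 to 334 (1.33 ± 0.21, adjusted p = 2.36e-04). The periostin gene postnb was lower (-2.38 ± 0.28, adjusted p = 4.88e-06), with the center at 1.1 and 6.9, the flank at 78.2 and 179.9 and the PSM at 132 to 434, and so was thbs4b, a thrombospondin gene of muscle attachment (-2.15 ± 0.34, adjusted p = 2.96e-04). Another probe set of postnb was not called (-0.45), and thbs4b was lost without the anterior PSM and with the arrays as 2 plain groups. Of 36 genes of cell adhesion and Eph signalling 1 was higher, ephb4b (1.67 ± 0.41, adjusted p = 0.0217), lost in 5 of the 10 fits without 1 array, and 2 were lower, the protocadherins pcdh8 and pcdh10b (8.33% of the list called). Of 36 genes of mesenchymal transition and migration 4 were higher and 4 lower (22.2% called), with snai1a, marcksa (0.83 ± 0.14, adjusted p = 7.31e-04), fn1a and cxcl12b high and snai2, vim, mmp14a (-1.15 ± 0.23, adjusted p = 0.00438) and lama5 low. Their median of 0.02 changed sign in 6 of the 23 other settings, which ran from -0.10 without both flank arrays to 0.09 under median centring. With 1 array left out it ran from -0.08 without replicate 2 of the tailbud center to 0.07 without replicate 1. Without the left flank, replicate 1 of the posterior, replicate 2 of the center or replicate 2 of the anterior PSM 2 genes of this list were lower, and none was lower without the intensity trend or with the arrays as 2 plain groups. The second probe set of mmp14a gave -0.10. With 1 array left out, vim was not called in 9 of the 10 fits (adjusted p up to 0.168), fn1a in 8 and lama5 in 5.

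Shares called in the remaining lists differed, against 4.40% of all genes. They were 18.6% for immediate early and stress genes, 7.14% for chaperones, 4.94% for translation factors and tRNA synthetases and 2.70% for glycolysis. Among 84 chaperones 3 were higher (pdia4, pdia3 and hspb1) and 3 lower (hsp90aa1.1, unc45b and dnajc1), with 11 lower when the right flank was left out and 1 to 5 higher with 1 array left out, the fewest without replicate 1 of the tailbud center or the left flank and the most without replicate 2 of the center PSM. Beside hsp90aa1.1 and unc45b the disulfide isomerase gene pdia4 differed in the other direction, at 477 to 597 against 110.3 to 410.2 (1.24 ± 0.24, adjusted p = 0.00285, not called without the anterior PSM or the intensity trend). Over the 10 fits without 1 array, the call was lost in 8 for pdia3, 5 for dnajc1 and 2 for hspb1. Among 43 immediate early and stress genes 2 were higher and 6 lower, and without the left flank 3 were lower. The early response gene ier2a was higher (1.22 ± 0.14, adjusted p = 3.44e-06), at 1576 to 1778 in the tailbud and 2297 and 2199 in the posterior PSM but 208 and 232 in the anterior PSM, and it was not called without the anterior PSM or with the arrays as 2 plain groups. The growth-arrest genes gadd45bb (-2.18 ± 0.44, adjusted p = 0.00443) and btg2 (-0.65 ± 0.14, adjusted p = 0.00798) and the kinase gene plk2b (-2.20 ± 0.46, adjusted p = 0.00601) were lower, plk2b not without the left flank (-1.56, adjusted p = 0.0607; -2.84 without the right) and btg2 not without that array or replicate 1 of the tailbud center. Without the anterior PSM none of these 3 was called. Of 81 translation factors and tRNA synthetases 4 were lower (eif3jb, eif4a1b, eif4a2 and mars1), of which eif4a1b, a helicase of translation initiation, had 156 to 240.4 and 299.5 to 469 without overlap (-0.80 ± 0.18, adjusted p = 0.00917). It was the only 1 of the 4 to hold in all 10 fits without 1 array, where the count was 1 without the left flank, replicate 1 of the posterior or either anterior PSM array, 2 without either center PSM array and 12 without the right flank. Without the anterior PSM, the flank or the intensity trend, or under median centring, eif4a1b was not called either. Of 37 glycolysis genes 1 was higher (pgd, of the pentose phosphate branch, 1.04 ± 0.24, adjusted p = 0.0128), and its call was lost in 3 of the 10 fits. Oxidative phosphorylation (87 genes), the proteasome (50), the TCA cycle (30) and apoptosis (19) had 0 called by limma, and at an unadjusted p under 0.05 they had 8, 4, 3 and 1. Their medians were -0.04, -0.06, -0.10 and -0.13, of which those of the first 3 changed sign in 1 or 2 of the 23 other settings, oxidative phosphorylation to 0.03 under median centring. With 1 array left out these 4 medians lay between -0.15 (the proteasome without the right flank) and 0.02 (oxidative phosphorylation without the left flank).

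**Figure D5:**
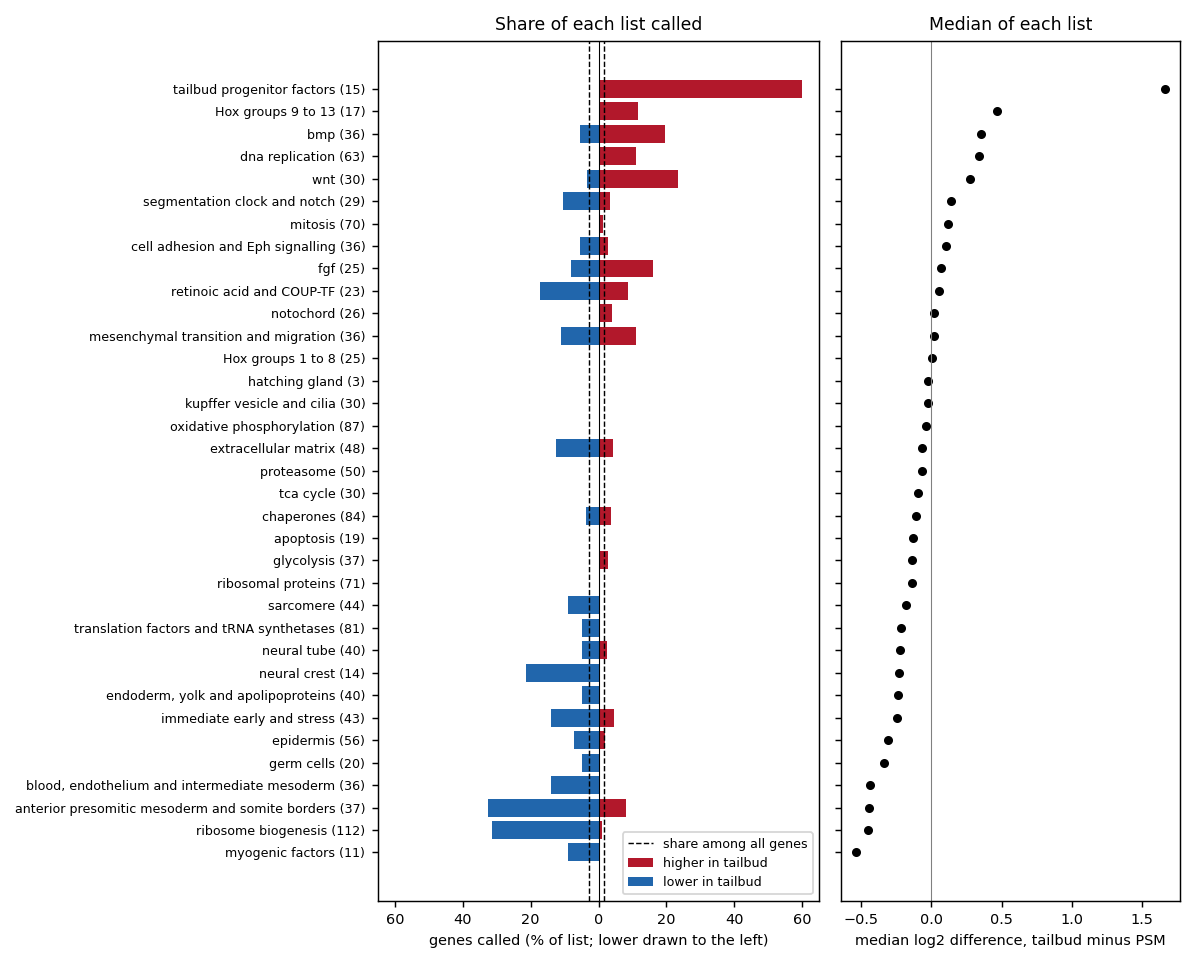
Left, the share of each of 35 gene lists called higher (red, drawn right) or lower (blue, drawn left) in the tailbud, in percent of the genes measured (in brackets), with dashed lines at the shares among all 8793 genes (1.71% and 2.70%). Right, the median difference of each list (log2), which runs from 1.66 for the tailbud progenitor factors to -0.53 for the myogenic factors.

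Among the fitted comparisons, the border between flank and posterior PSM held the fewest calls. The steps from posterior to center PSM and from center to anterior PSM were not fitted. Besides szl, 1 probe set of the locus zgc:66433 was higher in the flank. The 13 lower ones comprised 10 with a gene symbol and 3 without. Those described above are nr2f5, wif1, efemp2b, hsp90aa1.1, dmrt2a and tuba8l3. Of these 6, wif1, hsp90aa1.1 and tuba8l3 were not called between the flank and the center of the tailbud or between the anterior and posterior PSM. Their levels on either side of the border are the flank and posterior values already given, such as 28.7 and 46.2 and 448 and 370.4 for wif1.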

How the data were processed

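RNA of 12 pieces of zebrafish paraxial mesoderm was measured on single-colour Affymetrix arrays, 2 biological replicates for each of 6 positions per the labels. The authors deposited 1 intensity per probe set and array, computed with MAS5 as far as the submitters' processing notes name a tool (no version is given). The deposited values already share a trimmed mean of 150 on every array (2% of values trimmed at each end), so they were not scaled again. They hold no detection calls, so no gene can be called absent, and no read depth, so the number of arrays limits the precision.

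Of 15617 probe sets, 115 controls were left out. Signals were taken as log2(signal + 12.2), the 25th percentile of all values, with no filter on low values. A linear model with 1 mean per position was fitted to all 12 arrays with limma 3.58.1 in R 4.3.3, with a prior variance that follows intensity (6 residual and 16.2 prior degrees of freedom). The contrast was the mean of positions 1 and 2 minus the mean of positions 3, 4 and 5, with Benjamini-Hochberg adjustment over 15502 probe sets and a threshold of 0.05. Tables and figures used Python 3.11.15 with numpy 2.4.6, pandas 2.3.3, scipy 1.17.1 and matplotlib 3.10.9. The fitting steps were tested on simulated data.

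The platform annotation gives 1 symbol for 10795 probe sets, several for 135 and none for 4572. Through their gene IDs 10711 matched the RefSeq gene table (assembly GRCz12tu), 1 symbol was updated and 84 were kept unmatched. Where a gene had several probe sets, the brightest by mean log2 value stood for it. Genes were named where they were called, did not overlap between the groups and reached the median of all values (50.0) in at least 1 position: the 12 largest differences in each direction, the 5 in each direction with the widest gap between position means, and the 4 largest peaking at each position. Further genes were named as examples of 35 gene lists, and a few uncalled ones as known markers of a list. The comparison, the lists and their members were chosen with earlier results of these data known, and the lists overlap, so no list was tested as a set. The fit was repeated with median centring or quantile normalization, with no offset or the median as offset, after a filter at the 30th percentile, without the intensity trend, with weighted arrays, with replicate number as block, on other sets of arrays, on the mean of a gene's probe sets, and without each array in turn. The columns that match no sample number 0.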

Additional observations from a re-analysis of the deposited data

Results flagged for a closer look

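Single arrays stood apart from the rest of their group in 14 of the 368 combinations of a named gene or list with a group that were examined (3.8%). The measure is the gap of the highest or lowest array to its nearest neighbour divided by the range of the group, against Dixon's 95% critical value of 0.829 for the 4 tailbud arrays and 0.625 for the 6 PSM arrays, which chance alone passes in about 1 of 20 groups. The groups span several positions, so a position that differs from its neighbours can contribute.

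Replicate 2 of the tailbud center stood apart for 6 genes. It was low for szl (gap share 0.864, signal 158 against 873 or more in the other tailbud arrays), for rpf2 (0.833) and for ier2a (0.832). It was high for pcdh8 (0.856), zic2b (0.921) and mybbp1a (0.888). Replicate 1 of the center was low in the median of the genes of cell adhesion and Eph signalling (0.871).

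In the flank the left array was high for mespaa (0.937) and low for eif3jb (0.852). The right array was low for sp5a (0.855) and high for drl (0.844). In the PSM, replicate 1 of the anterior position was low for msx3 (0.770) and tubb5 (0.764), and replicate 2 of the center position was low for foxc1a (0.694).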

How the results depend on the processing

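Of 227 probe sets higher and 320 lower in the tailbud, leaving out 1 array gave 135 to 268 higher and 195 to 447 lower. Median centring gave 164 lower. A variance without the intensity trend gave 72 higher and 100 lower, the 10 arrays as 2 plain groups 96 and 143, the arrays without the anterior PSM 79 and 124, and 1 value per gene, which tests fewer features, 142 and 210. The other settings moved neither count by over 1.5 times. With the replicate number as a block, 249 were higher and 361 lower. Whether same-numbered arrays share more than a number was not tested. The correlation of their deviations from the position means ran from -0.051 to 0.06 over 15 pairs of positions. It was below 0 in each pair with the flank and above 0 in all other pairs. Replicate 2 had the higher median signal at every position but the flank, whose 2 replicates are opposite sides of the embryo. Of the 104 called genes named as list examples, 15 were called in all 23 other settings. The 35 genes named by size, gap or peak position were chosen on these same arrays for large differences without overlap. That choice favours keeping their calls, so the 2 shares cannot be compared as a test. Of these 35, 27 were called in all 23 other settings, and none of the 35 changed direction. The exceptions were dsc2l, sox9b, dlx5a, stk17al, elavl3, stmn2a, c6.2 and elovl7a, none of them among the 12 largest differences in either direction. The cause of these losses was not tested. Signals below the offset carry little order, and there are 2 arrays per position, so genes not called may still differ.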

Other observations

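The rest of the probe sets at the border between flank and posterior PSM belong to genes not described above. In the flank fhdc2, zfand5a, trnau1apa and sox19a were lower than in the posterior PSM, and all but sox19a were also called lower over the whole comparison of tailbud and PSM. The probe set of sox19a differed by -1.10 over the whole comparison and the 3 others by -1.70 (fhdc2), -1.31 (zfand5a) and -1.35 (trnau1apa). These 4 genes were picked out after their values were seen.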
